A study of Mus musculus with 4 samples.

Results

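The genes described here are 41 mouse genes of ribosome biogenesis and RNA polymerase I (Pol I) transcription, chosen by name. Transcript rows were found for 40 of them, out of 22407 named genes in the tables, and Noc2l was not analysed here. The 40 genes hold 55 transcript rows, and the FPKM (fragments counted, relative to transcript length and library depth) of a gene's rows were added. The source of the poly(A) RNA was embryonic stem (ES) cells on a C57BL/6X129Sv mix, under 20 passages old, kept in serum with leukemia inhibitory factor. The groups were p53-/- cells given 0.5 uM Adriamycin for 8 h, untreated p53-/- cells, p53+/+ cells given the same treatment, and untreated p53+/+ cells. Adriamycin (doxorubicin) is a drug that traps topoisomerase II on DNA and damages it. Each of the 4 groups has 1 library, so the spread between cultures is unknown, no difference below could be tested, and values are given without error. The labels used here do not say how many clones stand behind a genotype.

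Ribosomes are built in the nucleolus, where Pol I transcribes the long precursor of the ribosomal RNAs. Small nucleolar RNPs (snoRNPs) modify that precursor, the small subunit processome folds and cuts its 18S part, and a series of assembly factors matures the large subunit. In ES cells, which divide fast, these genes are highly expressed, and transcription factors of the MYC family are known to drive many of them. When assembly fails, free ribosomal proteins such as Rpl5 and Rpl11 are known to bind Mdm2, the ubiquitin ligase that degrades p53, so the pathway is also a sensor upstream of p53.

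The aligned bases, as coverage times length summed over rows, ranged over the 4 libraries between 3.34 and 4.32 gigabases. Each library carried all 10 ES markers at 1 FPKM or more. They summed to 2784 and 3176 FPKM in treated and untreated p53-/- cells, and to 3027 and 4461 FPKM in treated and untreated p53+/+ cells. Their median difference, p53-/- minus p53+/+ on the log2 scale described below, was -0.25 treated and -0.60 untreated. For all genes it was -0.02 and -0.05. Trp53, which encodes p53, stood at 76.5 and 78.6 FPKM in treated and untreated p53-/- cells, against 165 and 216 FPKM in treated and untreated p53+/+ cells, so its transcript was lower but not absent. Which exons are deleted is not stated in the labels. The p53 target Mdm2 stood at 19.9 and 17.7 FPKM in treated and untreated p53-/- cells, and at 257 and 32.6 FPKM in treated and untreated p53+/+ cells. Cdkn1a, which encodes the cell cycle inhibitor p21, stood at 24.6 and 18.0 FPKM in treated and untreated p53-/- cells, and at 85.8 and 26.2 FPKM in treated and untreated p53+/+ cells. The p53-/- libraries also carried fibroblast markers. The 10 markers summed to 253 and 297 FPKM in treated and untreated p53-/- cells, with none at 0, and to 14.1 and 8.57 FPKM in treated and untreated p53+/+ cells, where 5 of them, Col3a1, Dcn, Fap, Lum and Postn, were listed at 0. The 4 neuroectoderm markers summed to 12.1 and 13.4 FPKM in treated and untreated p53-/- cells, and to 2.25 and 2.89 FPKM in treated and untreated p53+/+ cells. Of the 3 that passed the filter described below, 2 were higher in p53-/- cells, Nes most. Sox1 was lower there, by -0.78 in treated and -0.62 in untreated cells on the log2 scale described below. The 6 primitive endoderm markers were lower in p53-/- cells, at sums of 3.31 and 2.55 FPKM in treated and untreated p53-/- cells against 19.4 and 22.1 FPKM in treated and untreated p53+/+ cells, and the 5 trophoblast markers summed to between 17.4 and 24.0 FPKM in the 4 libraries. The part of these differences in the comparisons of genotypes below was not tested.

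The promoters of 4 members show what stands around the starts of members at the ends of the range. Nop56 and Nop58 had the lowest differences after Adriamycin in p53+/+ cells, Wdr43 had the lowest among the 7 members with an E-box in the window, and Utp20 had the highest of all members. Each window runs from 250 bases before the annotated start to 50 after it, read 5′ to 3′ on the gene's strand, from RefSeq's tables of the build GRCm38.p6. They lie at chr2:130274162-130274461 (plus strand) for Nop56, chr1:59684756-59685055 (plus strand) for Nop58, chr17:71615965-71616264 (plus strand) for Wdr43 and chr10:88826765-88827064 (minus strand) for Utp20. Capitals mark CACGTG, the E-box that MYC and MAX bind.
Nop56: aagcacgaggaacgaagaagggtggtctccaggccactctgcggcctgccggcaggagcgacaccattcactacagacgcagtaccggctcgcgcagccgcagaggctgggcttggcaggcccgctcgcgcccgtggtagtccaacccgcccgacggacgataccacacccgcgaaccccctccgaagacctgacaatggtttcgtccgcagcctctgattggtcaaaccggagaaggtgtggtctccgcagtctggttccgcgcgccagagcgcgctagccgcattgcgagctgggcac
Nop58: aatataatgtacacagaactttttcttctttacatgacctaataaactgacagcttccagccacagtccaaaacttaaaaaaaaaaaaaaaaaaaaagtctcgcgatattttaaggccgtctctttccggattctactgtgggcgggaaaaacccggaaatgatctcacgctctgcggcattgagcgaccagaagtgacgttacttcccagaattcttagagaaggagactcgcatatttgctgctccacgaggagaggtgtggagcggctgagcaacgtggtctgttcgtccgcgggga
Wdr43: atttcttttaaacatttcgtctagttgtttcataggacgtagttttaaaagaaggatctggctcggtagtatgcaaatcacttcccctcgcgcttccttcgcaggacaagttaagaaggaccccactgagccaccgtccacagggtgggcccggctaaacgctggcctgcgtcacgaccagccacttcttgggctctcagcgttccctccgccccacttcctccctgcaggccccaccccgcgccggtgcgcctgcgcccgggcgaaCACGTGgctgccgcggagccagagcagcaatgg
Utp20: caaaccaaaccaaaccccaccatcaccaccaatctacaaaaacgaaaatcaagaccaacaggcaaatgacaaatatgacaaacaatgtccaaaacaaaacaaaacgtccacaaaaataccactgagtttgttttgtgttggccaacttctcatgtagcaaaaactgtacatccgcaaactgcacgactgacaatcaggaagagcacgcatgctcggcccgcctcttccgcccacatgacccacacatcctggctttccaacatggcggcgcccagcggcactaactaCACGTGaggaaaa
In Wdr43 and Utp20 the E-box lies after the annotated start. The Nop56 and Nop58 windows hold neither CACGTG nor the related CACGCG, searched on both strands with overlapping matches counted, which says only that these letters are not in these windows. Of the 40 members 34 had a window in the table, and 7 of the 34 held CACGTG in at least 1 of their windows (20.6%), against 11.9% of the 10380 genes with a window that passed the filter on low values described below. The related CACGCG was in 10 of the 34 (29.4%), against 19.9% of those 10380 genes. The p53+/+ response, described below, had a median of -0.47 over the 7 members with CACGTG and of -0.52 over the 27 without it, and a median of -0.59 over the 10 members with CACGCG and of -0.43 over the 24 without it.

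Differences are given on the log2(FPKM + 1) scale, as Adriamycin minus untreated within a genotype or as p53-/- minus p53+/+ within a treatment, and a gene was counted at a difference of at least 1, close to a 2-fold step. They were set beside 13018 genes with at least 1 FPKM in at least 1 library, a filter that all 40 members passed. All members were well expressed. Npm1 had the highest mean over the 4 libraries, at 359 FPKM, and Wdr12 the lowest, at 12.4 FPKM. In bulk RNA, fewer cells of a type and less RNA per cell cannot be told apart.

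In p53-/- cells most of the members' differences after Adriamycin lay close to 0. The median was -0.04, against 0.07 for all genes, and 25 of 40 members lay below 0 (62.5%), against 35.4% of all genes. No member was past the step in either direction, where 0.407% of all genes were higher and 0.461% lower. At a smaller step of 1.5-fold, a difference of 0.58 on this scale, only Fbl was lower, 1 of 40 members against 1.48% of all genes.

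After the same treatment, p53+/+ cells had lower transcripts of most of these genes, by modest amounts. In p53+/+ cells 37 of 40 members lay below 0 (92.5%), against 46.0% of all genes, and their median difference was -0.51 against 0.05 for all genes. Past the step, 3 of 40 members (7.50%) were lower, Nop56, Nop58 and Ubtf, against a background of 2.78% of all genes, and 0 of 40 were higher, against 11.4%. At the 1.5-fold step, 16 of 40 were lower, against 11.3% of all genes, and 0 were higher, against 21.7%. In FPKM itself, without the added 1, Heatr1 was also lower by 1.5-fold, so that 17 members were, and 1, Utp20, was higher by that fold. Well-expressed genes as a whole were lower too. The 5236 genes whose mean FPKM lies between those of Wdr12 and Npm1 had a median of -0.14, with 60.5% below 0, 4.05% lower past the step and 16.7% lower at the 1.5-fold step.

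The summed FPKM of the 40 members was 3203 in treated and 3501 in untreated p53-/- cells, and 2246 in treated and 3250 in untreated p53+/+ cells. These sums made up 0.912% and 0.950% of all FPKM in treated and untreated p53-/- cells, and 0.642% and 0.902% in treated and untreated p53+/+ cells. For 33 of the 40 members the treated p53+/+ library held the lowest of the 4 values, as it did for 32.0% of all genes and 44.9% of genes in the same FPKM range.

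**Figure D1:**
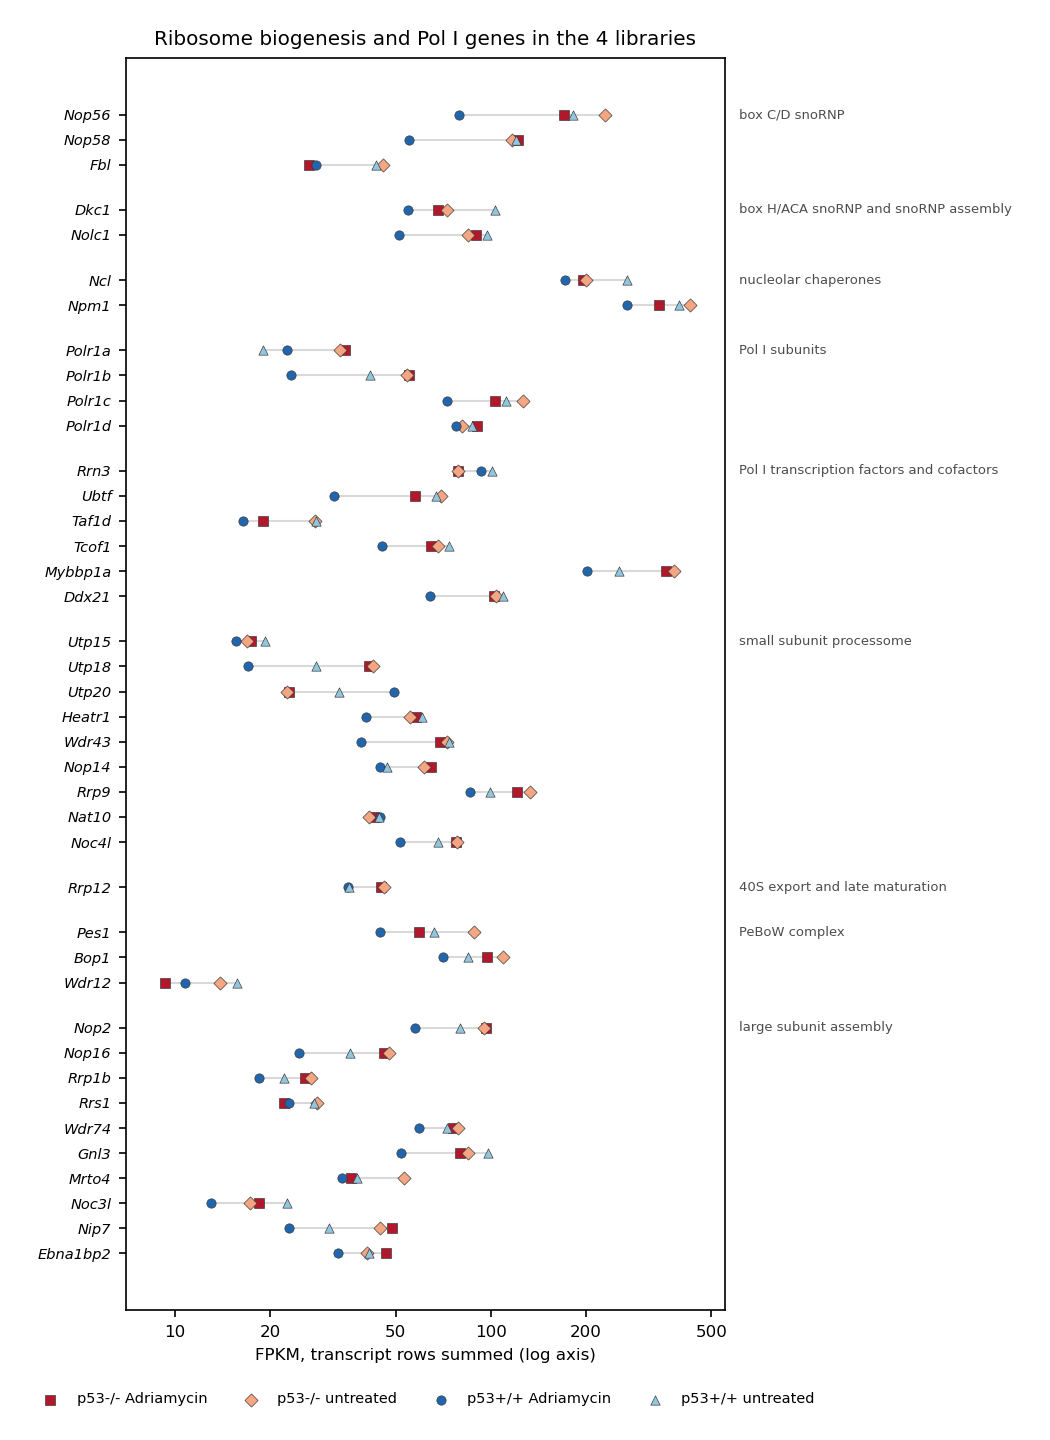
FPKM of each of the 40 members (rows, grouped by role) in the 4 libraries, on a log axis, with the transcript rows of a gene summed and a grey line from the lowest to the highest library. The treated p53+/+ library is the lowest of the 4 for 33 members, while Utp20 is highest there, at 49.5 FPKM.

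The core proteins of the box C/D snoRNP, which guides 2′-O-methylation of ribosomal RNA, included the members with the lowest differences. Nop56 (chromosome 2, 130100148 to 130105049 in mm9), a scaffold of that particle, stood at 171 FPKM in treated and 229 FPKM in untreated p53-/- cells, and at 79.1 FPKM in treated and 182 FPKM in untreated p53+/+ cells. It was thus lowest in the treated p53+/+ library, and its differences were -0.42 in p53-/- and -1.19 in p53+/+ cells. Its partner Nop58 (chromosome 1, 59741850 to 59768354 in mm9) stood at 122 FPKM in treated and 117 FPKM in untreated p53-/- cells, and at 54.9 FPKM in treated and 120 FPKM in untreated p53+/+ cells. The 3 other Nop58 values lie close together, and the treated p53+/+ library stands apart below them, so that the differences were 0.06 in p53-/- and -1.12 in p53+/+ cells. Fibrillarin (Fbl), the methyltransferase of the particle, behaved otherwise, at 26.6 and 45.7 FPKM in treated and untreated p53-/- cells and at 27.9 and 43.4 FPKM in treated and untreated p53+/+ cells. It was lower in both genotypes, by -0.76 in p53-/- and -0.62 in p53+/+ cells. The FPKM of Nop56, Nop58 and Fbl lie above their own deposited upper bounds in every library. For Nop56 in p53+/+ cells that bound was 77.3 FPKM after treatment and 173 FPKM without it. Nop56 and Fbl also have pseudogene copies with which they could share reads.

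The box H/ACA particle guides pseudouridylation of ribosomal RNA. Its pseudouridine synthase dyskerin, Dkc1, stood at 68.1 FPKM in treated and 73.0 FPKM in untreated p53-/- cells, and at 54.6 FPKM in treated and 103 FPKM in untreated p53+/+ cells. Nolc1, a nucleolar chaperone of snoRNPs, stood at 90.0 and 85.0 FPKM in treated and untreated p53-/- cells, and at 51.3 and 97.1 FPKM in treated and untreated p53+/+ cells. The p53-/- differences were -0.10 for Dkc1 and 0.08 for Nolc1, while each differed by -0.91 in p53+/+ cells. Other proteins of the H/ACA particle, which are not members, differed less in p53+/+ cells, Nhp2 by -0.14, Gar1 by -0.25 and Nop10 by -0.44.

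The nucleolar chaperones Npm1 and Ncl were, with Mybbp1a, the most abundant members. Nucleolin (Ncl), which binds the precursor RNA and nucleolar chromatin, stood at 196 and 200.4 FPKM in treated and untreated p53-/- cells, and at 172 and 271 FPKM in treated and untreated p53+/+ cells. Nucleophosmin (Npm1), a histone and ribosomal protein chaperone, stood at 341 and 427 FPKM in treated and untreated p53-/- cells, and at 270 and 395 FPKM in treated and untreated p53+/+ cells. Neither passed the step, with p53-/- differences of -0.03 for Ncl and -0.32 for Npm1 and p53+/+ differences of -0.65 for Ncl and -0.55 for Npm1. Npm1 has 4 pseudogene copies, so its values are uncertain.

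The Pol I subunits differed among themselves. Polr1b, the second largest subunit (chromosome 2, 128926732 to 128952331 in mm9), stood at 55.1 FPKM (deposited bounds 51.1 to 55.2) in treated and 54.4 FPKM (50.6 to 54.9) in untreated p53-/- cells. In p53+/+ cells it stood at 23.3 FPKM (21.5 to 23.9) after treatment and 41.5 FPKM (38.5 to 41.7) without it. The response was 0.02 in p53-/- and -0.80 in p53+/+ cells. Polr1a, the largest subunit (chromosome 6, 71859047 to 71929355 in mm9), was higher after treatment in both genotypes. It stood at 34.6 FPKM (32.7 to 35.4) in treated and 33.4 FPKM (31.6 to 34.3) in untreated p53-/- cells, against 22.7 FPKM (21.4 to 23.3) in treated and 19.0 FPKM (17.8 to 19.7) in untreated p53+/+ cells. Its differences were 0.05 in p53-/- and 0.25 in p53+/+ cells. Polr1c and Polr1d are subunits that Pol I shares with Pol III. Polr1c stood at 103 and 126 FPKM in treated and untreated p53-/- cells, and at 72.7 and 112 FPKM in treated and untreated p53+/+ cells. Polr1d stood at 90.5 and 80.8 FPKM in treated and untreated p53-/- cells, and at 77.4 and 87.0 FPKM in treated and untreated p53+/+ cells. The p53-/- differences were -0.29 for Polr1c and 0.16 for Polr1d, and the p53+/+ differences -0.62 for Polr1c and -0.17 for Polr1d.

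Among the factors that recruit and assist Pol I, Ubtf was past the step in p53+/+ cells and Rrn3 barely differed with treatment. Ubtf (chromosome 11, 102165874 to 102180410 in mm9) encodes UBF, the architectural factor of active ribosomal DNA. It stood at 57.8 FPKM in treated and 69.5 FPKM in untreated p53-/- cells, and at 31.8 FPKM in treated and 67.0 FPKM in untreated p53+/+ cells, so the 2 untreated libraries lay close together. The differences were -0.26 in p53-/- and -1.05 in p53+/+ cells, and both Ubtf rows lie within their own bounds throughout. With a pseudocount of 5 FPKM Ubtf was no longer past the step, and with quantile normalization only Nop56 was. Rrn3, which links Pol I to its promoter factor and is the usual regulated step of initiation, stood at 78.9 FPKM in treated and in untreated p53-/- cells alike, and at 93.1 and 101 FPKM in treated and untreated p53+/+ cells. Between genotypes Rrn3 was lower in p53-/- cells, by -0.24 treated and -0.35 untreated. The helicase Ddx21 differed by -0.03 in p53-/- and -0.76 in p53+/+ cells, and treacle (Tcof1), which acts with UBF, by -0.07 and -0.69. Taf1d, a subunit of the promoter factor SL1 and the least abundant member of this role, stood at 19.0 and 27.8 FPKM in treated and untreated p53-/- cells and at 16.4 and 27.9 FPKM in treated and untreated p53+/+ cells. Mybbp1a, which represses Pol I transcription, was the second most abundant member, at 360 and 380 FPKM in treated and untreated p53-/- cells and at 202 and 255 FPKM in treated and untreated p53+/+ cells.

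The small subunit processome held the widest range of p53+/+ responses among the roles. Wdr43, a factor of its UTP-A part, stood at 69.2 and 72.5 FPKM in treated and untreated p53-/- cells, and at 39.0 and 73.6 FPKM in treated and untreated p53+/+ cells, a difference of -0.90 in p53+/+ cells. Utp20 (chromosome 10, 88209352 to 88289559 in mm9) had the highest p53+/+ response of the whole set. Polr1a and Nat10 also lay above 0 there, at 0.25 and 0.02. Utp20 stood at 22.9 FPKM (21.9 to 23.7) in treated and 22.7 FPKM (21.6 to 23.5) in untreated p53-/- cells, against 49.5 FPKM (47.7 to 50.2) in treated and 33.0 FPKM (31.7 to 33.5) in untreated p53+/+ cells. Utp20 was therefore highest where most other members were lowest, with responses of 0.02 in p53-/- and 0.57 in p53+/+ cells. Nat10, the cytidine acetyltransferase of 18S RNA, stood at 42.6 and 41.3 FPKM in treated and untreated p53-/- cells and at 44.7 and 44.1 FPKM in treated and untreated p53+/+ cells, close together in all 4 libraries. Utp18 and Heatr1, 2 further processome factors, differed by -0.04 and 0.06 in p53-/- cells and by -0.69 and -0.58 in p53+/+ cells. Rrp9, a U3 snoRNP protein and the most abundant of this role, stood at 121 and 133 FPKM in treated and untreated p53-/- cells and at 86.1 and 99.8 FPKM in treated and untreated p53+/+ cells. Utp15, the least abundant, stood at 17.4 and 16.9 FPKM in treated and untreated p53-/- cells and at 15.7 and 19.3 FPKM in treated and untreated p53+/+ cells. The p53+/+ responses of Utp15, Nop14, Rrp9 and Noc4l lay between -0.39 and -0.06. Rrp12, a factor of later 40S maturation and export, stood at 44.8 and 45.9 FPKM in treated and untreated p53-/- cells and at 35.3 and 35.7 FPKM in treated and untreated p53+/+ cells, so that it differed between genotypes and hardly with treatment.

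Large subunit assembly factors were lower after treatment in p53+/+ cells, and none was past the step. In p53-/- cells 6 of the 10 members of this role lay below 0, with a median of -0.05, and in p53+/+ cells all 10 did, between -0.90 for Gnl3 and -0.16 for Mrto4, with a median of -0.36. Gnl3 encodes nucleostemin, a nucleolar GTPase known from stem cells, and stood at 79.9 FPKM (76.6 to 83.9) and 84.7 FPKM (81.5 to 89.0) in treated and untreated p53-/- cells, and at 52.0 FPKM (49.3 to 54.8) and 98.0 FPKM (94.8 to 102) in treated and untreated p53+/+ cells. Noc3l, whose yeast counterpart acts in the movement of pre-60S particles, stood at 18.5 and 17.3 FPKM in treated and untreated p53-/- cells and at 13.0 and 22.6 FPKM in treated and untreated p53+/+ cells. Nop2, a methyltransferase of 28S RNA and the most abundant of this role, stood at 96.9 and 95.2 FPKM in treated and untreated p53-/- cells and at 57.4 and 80.1 FPKM in treated and untreated p53+/+ cells. Ebna1bp2, a factor of early pre-60S assembly, had the largest positive difference of any member in p53-/- cells, 0.20, at 46.7 and 40.7 FPKM in treated and untreated p53-/- cells and 32.8 and 41.2 FPKM in treated and untreated p53+/+ cells. Mrto4, which prepares the site of the ribosomal stalk, stood at 36.1 and 53.1 FPKM in treated and untreated p53-/- cells and at 33.8 and 37.7 FPKM in treated and untreated p53+/+ cells, so its highest value was in untreated p53-/- cells. Nop16, Rrp1b, Rrs1 and Wdr74, the other assembly factors, had p53-/- responses between -0.34 and -0.05 and p53+/+ responses between -0.52 and -0.26.

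The PeBoW complex, in which Pes1, Bop1 and Wdr12 join to process the large subunit RNA, had like differences in both genotypes. Pes1 stood at 59.5 and 88.7 FPKM in treated and untreated p53-/- cells and at 44.7 and 66.1 FPKM in treated and untreated p53+/+ cells, differences of -0.57 and -0.55. Wdr12, the least abundant member, stood at 9.34 and 13.8 FPKM in treated and untreated p53-/- cells and at 10.8 and 15.7 FPKM in treated and untreated p53+/+ cells, differences of -0.52 and -0.50. Bop1 stood at 97.0 and 110 FPKM in treated and untreated p53-/- cells and at 70.4 and 85.0 FPKM in treated and untreated p53+/+ cells, differences of -0.18 and -0.27. Pes1 and Wdr12 have copies elsewhere in the annotation, so their values are uncertain. With Fbl, Taf1d and Mrto4, Pes1 and Wdr12 were the 5 members with the lowest differences in p53-/- cells. All 5 matched other annotated genes at near identity. Such copies were found for 8 members and not for 32. Nop56, Npm1 and Ddx21, which also have such copies, differed by -0.42, -0.32 and -0.03 in p53-/- cells. The share of all genes with such copies was not counted, and the part of copies in these differences was not tested.

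**Figure D2:**
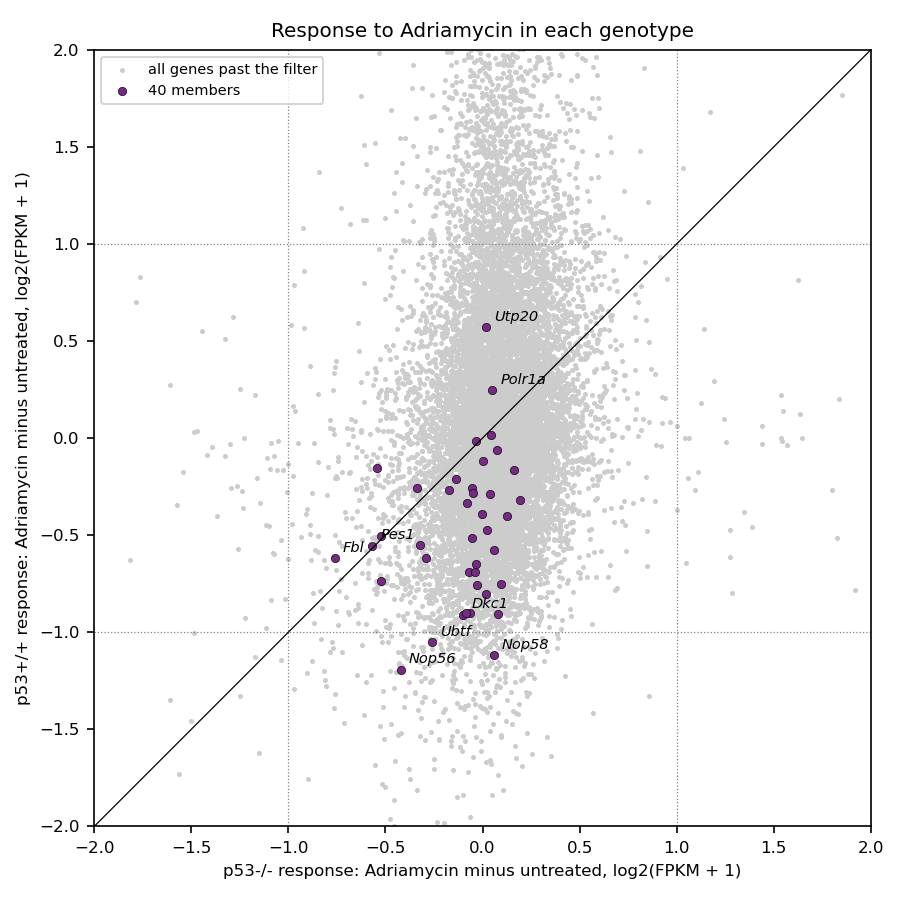
Response to Adriamycin of the 40 members (purple) and of all genes past the filter (grey) in p53-/- cells (x axis) and p53+/+ cells (y axis), each point 1 gene, with dotted lines at a difference of 1 and a diagonal of equal response; genes beyond 2 on either axis are not drawn. Most members lie below the diagonal, Fbl, Pes1 and Wdr12 lie near or on it, and Utp20 lies above it.

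The responses of the genotypes, taken from libraries that do not overlap, were set against each other. The p53-/- response minus the p53+/+ response was above 0 for 32 of 40 members (80.0%), against 50.8% of all genes, with a median of 0.33 against 0.01. It passed 1 for 1 member, Nop58 at 1.17, where 3.30% of all genes did, and no member was at -1 or less, where 10.4% of all genes were. The next values were 0.99 for Nolc1, 0.84 for Noc3l and 0.84 for Wdr43. The lowest were -0.55 for Utp20, -0.39 for Mrto4 and -0.20 for Polr1a. Among the genes of the same FPKM range the median of this quantity was 0.13, with 60.8% above 0.

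**Figure D3:**
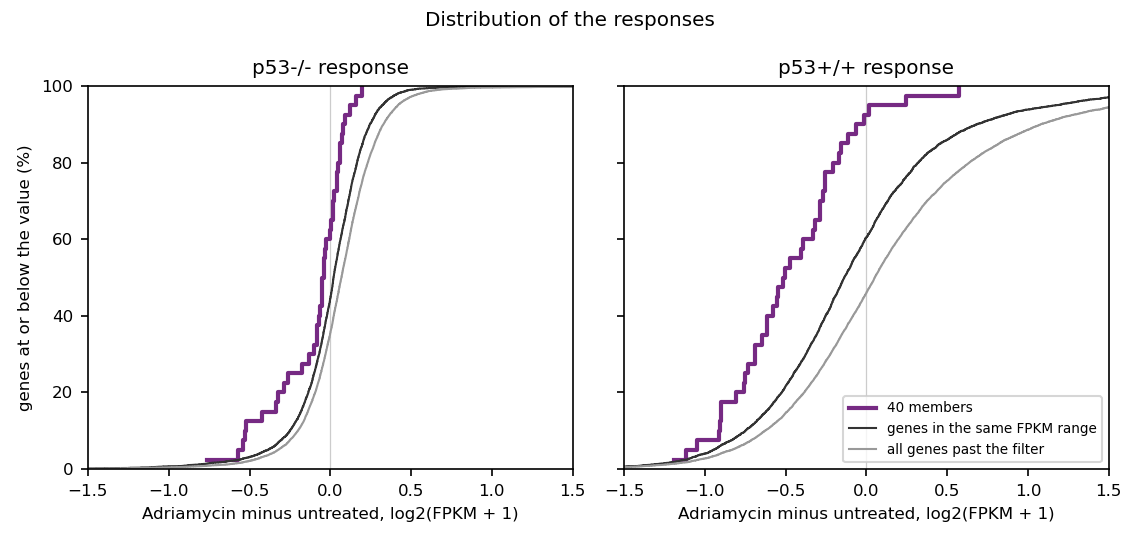
Cumulative share of genes (y axis, %) at or below a given response (x axis, log2 scale) in p53-/- cells (left) and p53+/+ cells (right), for the 40 members, for the 5236 genes of the same FPKM range and for all 13018 genes past the filter. In p53+/+ cells the members' curve lies to the left of both others above the lowest member, Nop56 at -1.19, and to the right below it, with a median of -0.51 against -0.14 and 0.05.

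Between the treated genotypes, which share no library with the untreated comparison, most members were higher in p53-/- cells. In treated cells 34 of 40 members were above 0 (85.0%), against 49.0% of all genes, and the median was 0.49 against -0.02. Past the step, 5 of 40 (12.5%) were higher, against 6.73% of all genes, and 1, Utp20 at -1.08, was lower, against 13.0%. In the same FPKM range 6.74% of genes were higher past the step and 59.5% were above 0. At the 1.5-fold step 15 members were higher, against 17.7% of all genes and 20.9% in that range, and 1 was lower, against 23.4% of all genes. The 5 were Utp18 at 1.23, Polr1b at 1.20, Nop58 at 1.14, Nop56 at 1.10 and Nip7 at 1.05. Utp18 (chromosome 11, 93720557 to 93747080 in mm9) stood at 41.2 and 42.3 FPKM in treated and untreated p53-/- cells, and at 17.0 and 28.0 FPKM in treated and untreated p53+/+ cells. Nip7, a factor of 60S maturation in yeast, stood at 48.7 and 44.6 FPKM in treated and untreated p53-/- cells, and at 23.0 and 30.7 FPKM in treated and untreated p53+/+ cells. For Nop56, Polr1b, Utp18 and Nip7 the p53-/- value was also the higher one without treatment, and for Nop58 it was not. Utp20 was not past the step with upper quartile scaling, nor were Utp20 and Nip7 with a pseudocount of 5 FPKM. These values were read from the treated p53+/+ library that also enters the p53+/+ response, so they repeat it in part.

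Without treatment the genotypes differed little in these genes. The median was 0.06, against -0.05 for all genes, and 22 of 40 members were above 0 (55.0%), against 45.3% of all genes. No member was past the step, where 3.51% of all genes were higher and 3.14% lower in p53-/- cells. The largest difference was 0.79 for Polr1a, the only member past the 1.5-fold step on this scale, where 10.3% of all genes were higher, and the lowest was -0.52 for Utp20, followed by -0.50 for Dkc1 and -0.43 for Ncl. In FPKM itself Utp18, at 1.51-fold, was past 1.5-fold too.

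Of the other genes of the pathway, taken from 4 lists, 119 of 120 passed the filter. In p53-/- cells their median response was 0.01 and 55 of 119 (46.2%) lay below 0, against 35.4% of all genes. In p53+/+ cells their median was -0.35 and 99 of 119 (83.2%) lay below 0, against 46.0% of all genes. At the 1.5-fold step 30 were lower (25.2%), against 11.3% of all genes, and 3 higher (2.52%), against 21.7%. Past 1 there were 2 lower (1.68%), Senp3 and Gnl3l, a smaller share than the 2.78% of all genes. There were 0 higher past 1, against 11.4% of all genes. Senp3, a SUMO protease of the large subunit assembly factors, stood at 85.9 and 119 FPKM in treated and untreated p53-/- cells and at 52.1 and 147 FPKM in treated and untreated p53+/+ cells, a p53+/+ difference of -1.47. Gnl3l, a relative of Gnl3, stood at 31.2 and 34.0 FPKM in treated and untreated p53-/- cells and at 19.1 and 39.5 FPKM in treated and untreated p53+/+ cells, a difference of -1.01. By list, the p53-/- and p53+/+ medians were 0.05 and -0.43 for 45 other small subunit genes, -0.01 and -0.33 for 48 other large subunit genes, -0.08 and -0.25 for 13 other snoRNP genes, and 0.00 and -0.14 for 13 other genes of the Pol I machinery. The last of these lists is not specific to Pol I. It includes Top1 and the subunits Polr2e, Polr2f, Polr2h, Polr2k and Polr2l, which Pol I shares with Pol II and Pol III. These subunits are left out of the Pol II and Pol III lists below. The Pol I machinery list was split, with Twistnb, a Pol I subunit, at -0.90 in p53+/+ cells and Ttf1, the Pol I termination factor, at 0.89.

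Related machinery, most of which does not build cytosolic ribosomes, was set beside the members. Medians of the p53+/+ response were -0.24 for 11 Pol III subunits, -0.14 for 7 Pol II subunits and -0.21 for 21 genes of the mitochondrial ribosome. The RNA exosome, which trims ribosomal RNA precursors, had a median of -0.38 over 13 genes. Of the 13, 1 was lower past the step, the helicase Mtrex at -1.03, against 2.78% of all genes. In p53-/- cells the medians of these 4 lists lay between -0.01 and 0.06. The differences between these lists and the members were not tested.

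**Figure D4:**
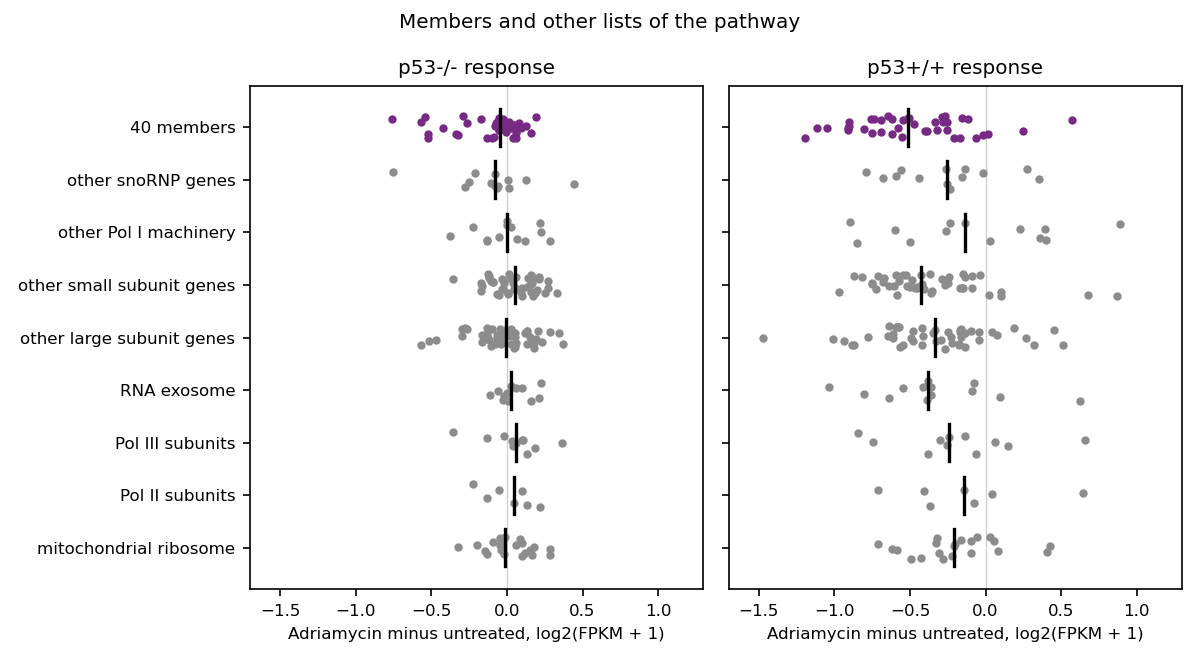
Response to Adriamycin (x axis, log2 scale) of the members and of 8 other lists (rows) in p53-/- cells (left) and p53+/+ cells (right), with 1 point per gene and a black bar at the median of each list. The members' median is -0.04 in p53-/- cells and -0.51 in p53+/+ cells, and the other lists lie between -0.43 and -0.14 in p53+/+ cells.

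The MYC family, which drives many of these genes, was measured in the same libraries. Mycn stood at 50.2 and 59.8 FPKM in treated and untreated p53-/- cells, and at 13.7 and 36.5 FPKM in treated and untreated p53+/+ cells, a response of -0.25 in p53-/- and -1.35 in p53+/+ cells. Myc stood at 7.31 and 8.67 FPKM in treated and untreated p53-/- cells, and at 9.97 and 17.1 FPKM in treated and untreated p53+/+ cells, a response of -0.22 and -0.72. Mxd4 and Mxd1, which compete with MYC for MAX, differed by 0.24 and 0.23 in p53-/- cells and were past the step in p53+/+ cells, at 1.69 and 1.06. Mxi1, another such competitor, went the other way in p53+/+ cells, at -0.54, and Max itself differed by -0.31 there. Of the 10 genes of the MYC list, 7 lay below 0 in p53+/+ cells, against 46.0% of all genes, and 3 above. The whole MYC list had 0 of 10 genes past the step in p53-/- cells, where 0.407% of all genes were higher and 0.461% lower. In p53+/+ cells 2 of 10 were higher, against 11.4% of all genes, and 1 was lower, against 2.78%. Mycn was thus lowest in the treated p53+/+ library, as were 33 of the 40 members and 44.9% of genes in the members' FPKM range. Myc was lowest in the treated p53-/- library. The part of Mycn and Myc in the members' values was not tested. Over the 10 ES markers the median response was -0.20 in p53-/- and -0.68 in p53+/+ cells, and their part in the members' values was not tested either.

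The 7 listed genes that couple the nucleolus to p53 had a median response of -0.19 in p53-/- and -0.41 in p53+/+ cells. The lowest were Rps7 at -0.73 in p53-/- cells and Rpl23 at -0.84 in p53+/+ cells. In p53+/+ cells 1 of the 7, Mdm2 at 2.94, was higher past the step, against 11.4% of all genes, and 0 were lower, against 2.78%. Of the others, Rpl5 differed by -0.46 in p53-/- and -0.41 in p53+/+ cells, and Rpl11 by -0.11 in p53-/- and -0.79 in p53+/+ cells. Cdkn2a, whose ARF product holds Mdm2 and Npm1 in the nucleolus, stood at 58.3 and 60.5 FPKM in treated and untreated p53-/- cells, and at 11.0 and 10.4 FPKM in treated and untreated p53+/+ cells, so its values lay close together within each genotype and apart between them. A sum over the locus does not separate ARF from the p16 product.

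Several transcript rows were listed for 9 of the 40 members. The proportions of the 2 Ubtf rows differed between genotypes and little with treatment, with the longer row at 69.1% and 70.9% of the gene's FPKM in treated and untreated p53-/- cells and at 78.7% and 79.2% in treated and untreated p53+/+ cells. Both rows were lower after treatment in p53+/+ cells, by -1.05 for the longer and -0.94 for the shorter row. Between treated genotypes the longer row differed by 0.65 and the shorter one by 1.28. In Npm1 1 library stood apart. The row NM_008722, of 1422 bases, stood at 10.9 FPKM (9.11 to 12.6) in treated and 116 FPKM (110 to 123) in untreated p53-/- cells, against 86.7 FPKM (81.7 to 91.9) in treated and 136 FPKM (129 to 143) in untreated p53+/+ cells. The row NM_001252260, of 1383 bases, stood at 283 FPKM in treated and 233 FPKM in untreated p53-/- cells, and at 140 FPKM in treated and 192 FPKM in untreated p53+/+ cells. The first row thus held 3.18% of Npm1 in the treated p53-/- library and 27.2% to 34.3% in the 3 other libraries, while the p53-/- response of the gene's sum was -0.32. The 2 rows share a span, and how their reads were divided was not tested. Polr1d had its shorter row at 74.0% and 69.5% in treated and untreated p53-/- cells, against 58.9% and 56.8% in treated and untreated p53+/+ cells, a difference between genotypes and little with treatment.

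**Figure D5:**
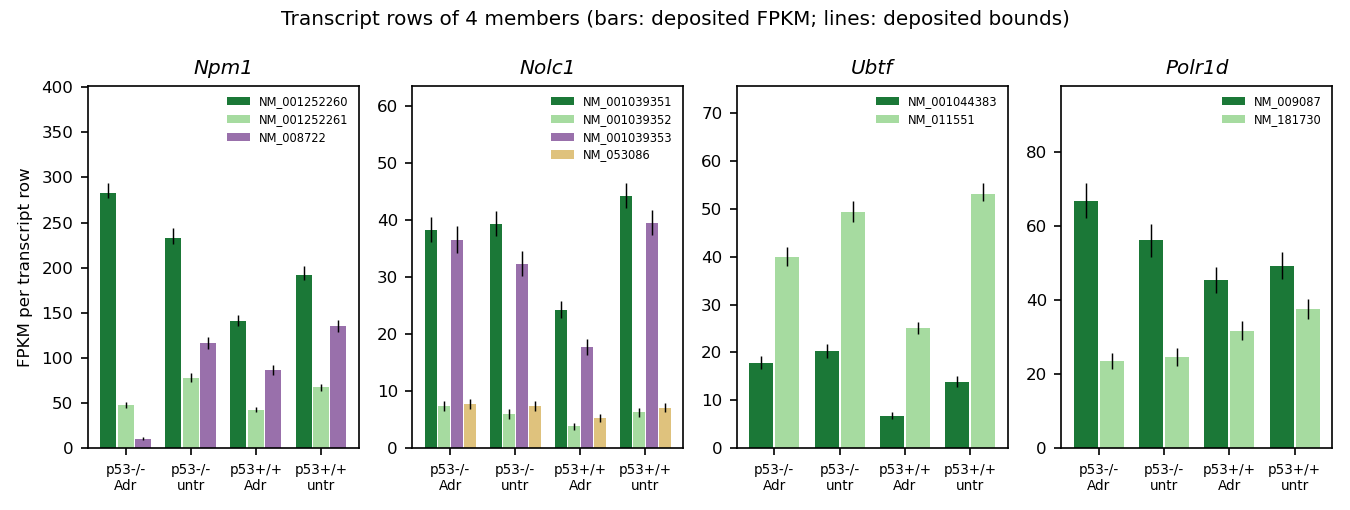
FPKM of each transcript row (bars, y axis from 0) of Npm1, Nolc1, Ubtf and Polr1d in the 4 libraries, with the deposited lower and upper bounds as lines, which cover counting and assignment error only. The Npm1 row NM_008722 stands at 10.9 FPKM in the treated p53-/- library and between 86.7 and 136 FPKM in the other libraries.

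The spans of 5 members, Ncl, Nop58, Nop56, Gnl3 and Wdr43, hold 10 snoRNA rows, by the files' own positions. Strand and exons were not compared. All 10 snoRNA rows were listed at 0 in every library, as were 101 of the 123 snoRNA rows in the tables, so these snoRNAs could not be followed beside the members.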

How the data were processed

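Poly(A) RNA of 4 ES cell cultures, 1 per group, had been sequenced. An exome enrichment kit is listed as well, per the labels' protocols. The authors deposited FPKM per transcript with lower and upper bounds, a signal column of read coverage, and transcript lengths, in a Cufflinks layout per the file headers. CASAVA 1.8.1, TopHat2 2.0.5, TopHat and Cufflinks and the build mm9 are named per the submitters' processing notes, and no source used here gives the annotation. FPKM are not counts and were given no count model.

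Of 30769 rows, 30407 were named by identifier from RefSeq (GRCm38.p6) or GENCODE M21, and 813 short RNA rows were left out. FPKM were summed per gene, filtered at 1 FPKM in at least 1 library and compared as log2(FPKM + 1). Low genes are understated on that scale. Positions are in mm9, counted from 1. In each library 1490 to 2000 rows lie above their own upper bound, and 21 of 40 members have every row within its bounds in every library. Bounds are printed for such rows, unless named as exceeded. Near-identical copies are other GENCODE genes with a match of at least 300 bases at 95% identity to a member's longest coding transcript (blastn 2.17.0). They were found for 8 of 40 members.

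Values in every library are given for members past 1 in any comparison, for the 3 largest and the 3 smallest differences in each genotype's response and for the highest and lowest member by mean FPKM in each role, with some more members chosen after their values were seen. Other genes of the pathway are named when past 1 in the p53+/+ response, besides Trp53, Myc, Mycn, Mdm2 and Cdkn1a. Genes named beyond this rule were also chosen after their values were seen. The members and lists were chosen with earlier results of these data known. Calculations used Python 3.11.15, pandas 2.3.3, numpy 2.4.6 and matplotlib 3.10.9, and were tested on simulated data. The alternatives are pseudocounts, filters, scalings and row choices.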

Additional observations from a re-analysis of the deposited data

Results flagged for a closer look

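Some members had differences of opposite sign in the groups compared, each at least 0.1 in size. With 1 library per group these contrasts were not tested. The share of all genes that meet the same rule was not counted, so the counts below have no background. In the responses, 3 members were above 0 in p53-/- cells and below 0 in p53+/+ cells. The difference of their responses, p53-/- less p53+/+, was 0.33 for Polr1d, 0.53 for Nip7 and 0.52 for Ebna1bp2. Between genotypes, 9 members were higher in p53-/- cells after treatment and lower in p53-/- cells without it. The treated difference minus the untreated one was 0.81 for Dkc1, 0.99 for Nolc1, 0.62 for Ncl, 0.33 for Polr1d, 0.62 for Tcof1, 0.33 for Utp15, 0.64 for Heatr1, 0.82 for Gnl3 and 0.84 for Noc3l. This last quantity equals the difference of the responses and is no second result.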

How the results depend on the processing

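The median of the members in the p53+/+ response was -0.62 with median ratio scaling, -0.40 over the 21 members with rows within their own bounds and -0.40 over the 32 members with no near-identical copy, an alternative chosen after seeing the data. It stayed below 0 under every setting run. The medians of the 4 other comparisons moved by no more than 0.1, although 2 that lie near 0 changed sign over rows within bounds, to 0.02 in the p53-/- response and -0.02 between untreated genotypes. Of the counts past 1 in the p53+/+ response, 3 members in the report, there were 7 with upper quartile and 7 with median ratio scaling (Dkc1, Gnl3, Nolc1 and Wdr43 added, where 3.90% and 4.15% of all genes were lower), 1 with quantile normalization (Nop56) and 1 of 21 over rows within bounds (Ubtf, where 2.56% of all genes were lower). With quantile normalization 4.58% of all genes were lower past the step, and the median of all genes shifted by -0.15 in the p53+/+ response and by 0.12 between treated genotypes, and higher genes made up 65.3% of those past the step in the p53+/+ response, against 80.4% as deposited (44.3% against 34.0% between treated genotypes and 34.7% against 24.0% in the difference of responses). At a 1.5-fold step 16 members were lower in the p53+/+ response, against 11.3% of all genes, and 0 higher, against 21.7%. In the p53-/- response 1 was lower, against 1.48% of all genes. Between treated genotypes 15 were higher, against 17.7%, and 1 was lower, against 23.4%. Between untreated genotypes 1 was higher, against 10.3%. Between treated genotypes 3 of 21 members were past 1 over rows within bounds, against 6 of 40 in the report. Of the 3, 2 were higher, where 6.55% of all genes were, and 1 was lower, where 13.5% were. With a gene's transcript of highest mean FPKM in place of the sum, Npm1 was past 1 between treated genotypes and Nip7 was not. No member past 1 in the report changed sign. No paired analysis was possible because each group has 1 library. Depth limits the rarer transcript rows most, such as a Wdr12 row at 0.439 FPKM with bounds of 0.247 to 0.632 in treated p53-/- cells, and without replicates the spread between cultures is unknown.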
